A study of Homo sapiens with 8 samples.

Results

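The 10 genes described here encode receptors, transcription factors and feedback inhibitors of the JAK-STAT3/5 pathway. They are the receptor chains IL6R, LIFR and IL6ST, the transcription factors STAT3, STAT5A and STAT5B, and the inhibitors SOCS1, SOCS2, SOCS3 and CISH. They were chosen by symbol, and all 10 had a value among the 18404 genes tested, each from a single probe set. HepG2 is a line of human liver cancer cells with many features of hepatocytes, and its RNA was measured on 8 single-channel arrays. In 4 cultures the cells had been exposed to 0.5 mM hydrogen peroxide (H2O2) for 60 minutes to induce senescence, in which cells stop dividing for good. The 4 control cultures had received culture medium alone. Per the labels, all cultures were washed and kept for 5 days before their morphology and senescent phenotype were examined, and the labels do not say separately when RNA was taken. The comparison asked which transcripts differ between the treated and the untreated cells of this line.

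Most cytokines of the interleukin-6 (IL-6) family signal through the shared chain IL6ST (gp130), together with a further receptor chain such as IL6R or LIFR. Janus kinases (JAKs) bound to these receptors then phosphorylate STAT3, which enters the nucleus and, in hepatocytes, drives acute phase genes. Growth hormone and prolactin receptors signal mainly through STAT5A and STAT5B, which in liver control growth and metabolic genes. STATs also induce SOCS1, SOCS2, SOCS3 and CISH, whose proteins bind the active receptor or kinase and shut the pathway down.

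The arrays had medians between 6.85 and 6.93 on the log2 scale. Pearson's r across probe sets, which are not independent of each other, was 0.990 to 0.996 between arrays of a group and 0.979 to 0.985 between the groups. All 9 measured hepatocyte markers lay above the median of all values (6.89) in untreated cells, as did 3 of 8 macrophage and leukocyte markers, 1 of 5 endothelial markers and 3 of 8 fibroblast and stellate markers. The mean log2 value of the hepatocyte markers was 12.09 to 12.14 on untreated and 11.64 to 11.93 on H2O2 arrays. For the leukocyte markers it was 7.10 to 7.18 and 7.18 to 7.29, for the endothelial markers 5.89 to 6.03 and 5.84 to 6.06, and for the fibroblast markers 6.53 to 6.65 and 6.58 to 6.77. The part of these shifts in the results below was not tested. In RNA from whole cultures, fewer cells with a transcript and less of it per cell cannot be told apart.

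SOCS2 rose by a measured 3.55-fold in treated cells, from a level not shown to exceed background, and IL6R and STAT3 rose 1.77-fold and 1.43-fold. LIFR was 1.83-fold lower, SOCS1 1.43-fold lower and STAT5B 1.25-fold lower. SOCS3 fell slightly, in a borderline call that was lost in 9 of 15 other settings. IL6ST, STAT5A and CISH did not pass the test. Thus 3 of the 10 genes rose and 4 fell, where 34.0% of all genes were called, 19.2% higher and 14.8% lower (limma, Benjamini-Hochberg adjusted p under 0.05 over all genes). The share is larger among brighter genes. When dim genes were left out, STAT5A among them, 3144 of 11256 genes were called higher and 2577 lower, with 3 and 4 of the genes described here. The groups did not overlap for 7 of the 10 genes, beside 33.7% of all genes. In 3 the treated cultures were all above (18.9% of all genes) and in 4 all below (14.8%). The median log2 difference of the 10 was -0.048, beside -0.022 for all genes. All differences are H2O2 minus untreated on the log2 scale with their standard error, and n = 4 cultures per group.

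**Figure D1:**
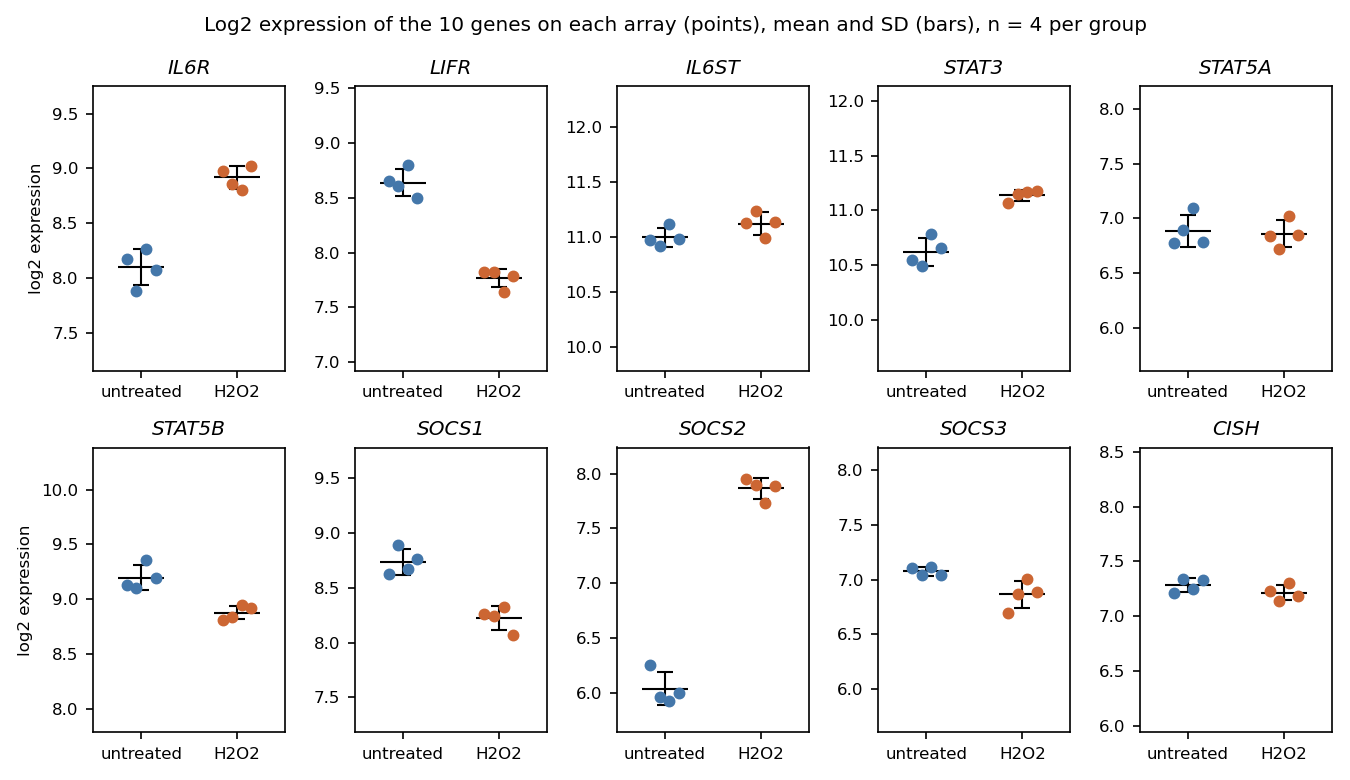
Log2 expression of each of the 10 genes (vertical axes, all spanning the same range) on the 4 untreated (blue) and 4 H2O2 arrays (orange), with the mean and SD as bars. The groups stand apart for IL6R, LIFR, STAT3, STAT5B, SOCS1, SOCS2 and, by 0.033, for SOCS3, and overlap for IL6ST, STAT5A and CISH.

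Among the receptors, IL6R (probe set 7905789), the chain that binds IL-6 itself, read 8.17, 7.88, 8.27 and 8.07 on untreated arrays 1 to 4. On the H2O2 arrays it read 8.98, 8.86, 8.81 and 9.02. Every treated culture lay above every untreated culture, with a gap of 0.54 between the groups. Its mean went from 8.10 ± 0.16 (SD) to 8.92 ± 0.10, a log2 difference of 0.82 ± 0.087 (limma adjusted p = 6.31e-06), which ranked 541 among the rises of 18404 genes.

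LIFR (probe set 8111677), the chain that binds leukaemia inhibitory factor, moved the other way. It read 8.66, 8.61, 8.80 and 8.50 in untreated cells and 7.82, 7.82, 7.64 and 7.78 in treated cells. The lowest untreated culture was 0.67 above the highest treated culture. Its difference of -0.87 ± 0.078 (limma adjusted p = 1.21e-06) was the largest fall of the 10 genes and ranked 308 among all falls.

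IL6ST (probe set 8112139), which both receptors need for signalling, read 10.97, 10.92, 11.12 and 10.98 without and 11.13, 11.24, 10.99 and 11.14 with H2O2. The groups overlapped, since the treated culture 3 lay among the untreated ones. The difference was 0.13 ± 0.074, with a 95% interval from -0.033 to 0.28 (limma adjusted p = 0.222). The interval leaves room for a rise of the size of its upper bound and for a slight fall.

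STAT3 (probe set 8015607), the factor activated by IL-6 family receptors, rose by 0.52 ± 0.075 (limma adjusted p = 9.27e-05). It read 10.55, 10.50, 10.79 and 10.66 in untreated cells and 11.07, 11.15, 11.16 and 11.18 in treated cells. The treated cultures were all higher and close together, with an SD of 0.050 against 0.13 in the untreated group.

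STAT5B (probe set 8015590), the main mediator of growth hormone in liver, read 9.13, 9.10, 9.36 and 9.19 in untreated cells. After H2O2 it read 8.81, 8.84, 8.94 and 8.92. All treated cultures were lower, and the difference was -0.32 ± 0.073 (limma adjusted p = 0.00381).

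STAT5A (probe set 8007212), its close relative, read 6.78, 6.89, 7.09 and 6.79 in untreated and 6.84, 6.72, 7.02 and 6.85 in treated cells. The groups overlapped, at a difference of -0.028 ± 0.087 (95% interval -0.22 to 0.16, limma adjusted p = 0.848). Its untreated and treated means exceeded 50.1% and 49.6% of probe sets, so the level of STAT5A is not shown to exceed background, which limits this result. STAT5A and STAT5B are near-identical copies, so probes could read transcripts of both, and their values are uncertain to that extent. In the RefSeq gene table of assembly GRCh38.p14, STAT5B, STAT5A and STAT3 follow each other on chromosome 17 with 0 protein-coding genes between neighbours.

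Of the inhibitors, SOCS2 (probe set 7957551), a brake on growth hormone signalling, had the largest change of the 10 genes. It read 6.25, 5.96, 5.93 and 6.00 in untreated cells and 7.95, 7.89, 7.73 and 7.88 in treated cells. The groups were 1.48 apart, far more than the spread within either, and the rise of 1.83 ± 0.083 (limma adjusted p = 1.78e-09) ranked 85 among all rises. Its untreated mean of 6.04 ± 0.15 exceeded only 36.0% of probe sets, so it is not shown to exceed background, and the fold may be less exact than its error says. Its treated mean exceeded 64.4%.

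SOCS1 (probe set 7999423), which blocks JAK catalytic activity, fell by 0.52 ± 0.080 on the log2 scale (limma adjusted p = 0.000173). The untreated cultures read 8.63, 8.89, 8.67 and 8.77, and the treated ones 8.26, 8.25, 8.32 and 8.07. The groups did not overlap, with a gap of 0.30.

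SOCS3 (probe set 8018864), the main inhibitor of signalling through IL6ST, read 7.11, 7.05, 7.11 and 7.04 in untreated cells. In treated cells it read 6.70, 6.87, 7.01 and 6.89. Only 0.033 separated the lowest untreated from the highest treated culture, and treated culture 1 lay lowest. The treated mean of 6.86 lay below the median of all values (6.89), so it is not shown to exceed background. The difference of -0.21 ± 0.074 passed at a limma adjusted p of 0.0391. The call was lost when any of 7 of the 8 arrays was left out (adjusted p = 0.0582 to 0.144) and held without H2O2 replicate 3 (adjusted p = 0.0115), so the fall of SOCS3 is a borderline call.

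CISH (probe set 8087739), the founding member of the family and a classical STAT5 target, read 7.21, 7.34, 7.25 and 7.33 in untreated cells. In treated cells it read 7.23, 7.14, 7.30 and 7.18. The groups overlapped, and the difference of -0.068 ± 0.067 did not pass (95% interval -0.21 to 0.076, limma adjusted p = 0.488). The interval leaves out a rise of the size seen for SOCS2.

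**Figure D2:**
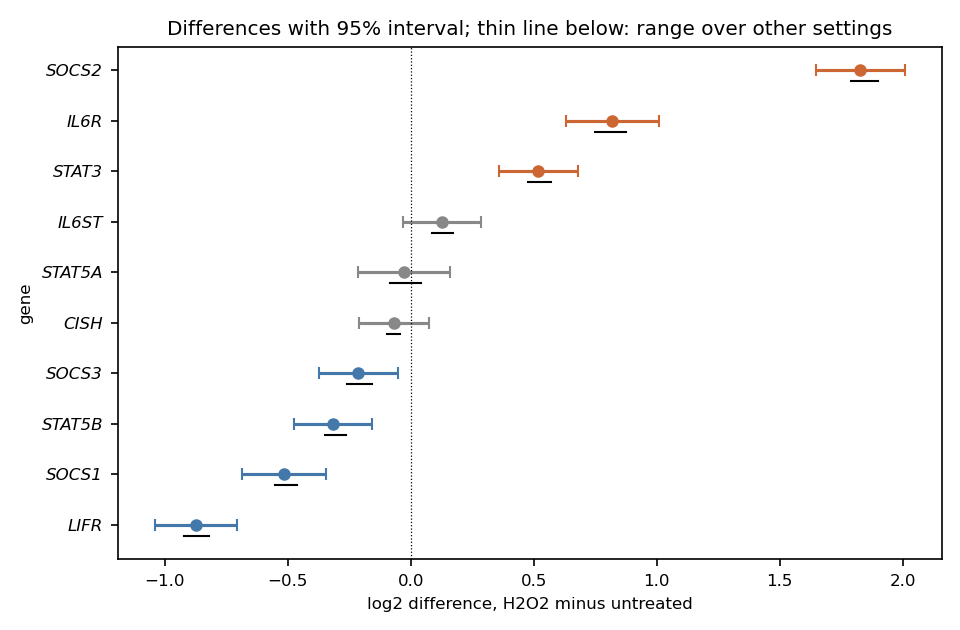
Log2 difference between H2O2 and untreated cells (horizontal axis) for the 10 genes, ordered by value, with 95% intervals from the limma fit and, as a thin line below each, the range over the other settings tried. Genes called higher are orange, genes called lower blue and genes not called grey, and the values run from -0.87 for LIFR to 1.83 for SOCS2.

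Promoter windows of RefSeq, build GRCh38.p14, from 250 bases before to 50 after a transcription start, were read for STAT sites. They matched 9 of the 10 genes, in 14 windows. SOCS2 had no window, so its promoter was not read. The motif searched was TTCNNNGAA, which reads the same on either strand. CISH is shown because its window held 4 of these motifs, although its transcript did not pass the test, and LIFR because it held 1 in each of 2 windows and its transcript fell. The motif is in capitals, and each stretch reads 5′ to 3′ on the minus strand, upstream of the start:
CISH, chr3:50611865-50612024: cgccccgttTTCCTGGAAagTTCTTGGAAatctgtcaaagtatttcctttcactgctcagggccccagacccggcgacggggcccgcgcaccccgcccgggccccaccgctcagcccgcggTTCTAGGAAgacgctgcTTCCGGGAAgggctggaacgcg
LIFR, chr5:38595536-38595595: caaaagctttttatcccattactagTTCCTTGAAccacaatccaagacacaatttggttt
LIFR, other start, chr5:38557615-38557674: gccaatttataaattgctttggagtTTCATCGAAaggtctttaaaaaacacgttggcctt

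The CISH motifs begin 241, 230, 129 and 112 bases before the start, in 2 close pairs. Among all 35116 windows 7.66% held the motif at least once, and 7 windows, or 0.0199%, held it 4 times or more. The windows of SOCS1, SOCS3, STAT3, STAT5A, STAT5B, IL6R and IL6ST held none, which says only that these letters are not in those windows. With 4 bases in place of 3 between TTC and GAA, 6.44% of all windows matched. Of the 9 genes with a window, which leave out SOCS2, a STAT5A window alone did.

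Ratios within an array show how genes of a kind changed beside each other. They are given for 6 pairs as a description, with no test, since the pairs were chosen after the values were seen. The log2 ratio of IL6R to LIFR was -0.54 ± 0.13 in untreated and 1.15 ± 0.084 in treated cells, a shift of 1.69. IL6R against IL6ST shifted by 0.69.

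STAT3 against STAT5B shifted by 0.83. Within a group this ratio varied very little, with an SD of 0.028 in untreated and 0.040 in treated cells, less than either gene alone. STAT5B against STAT5A shifted by -0.29, where the near-identity of the pair again limits the reading, and whether these genes changed unequally was not tested.

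SOCS2 against CISH, both known as STAT5 targets, shifted by 1.90, a size that rests on the low untreated level of SOCS2. SOCS1 against SOCS3 shifted by -0.30 with overlapping ratios, and a difference between their falls was not tested. The inhibitors thus included a large rise, falls and a gene that did not pass.

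**Figure D3:**
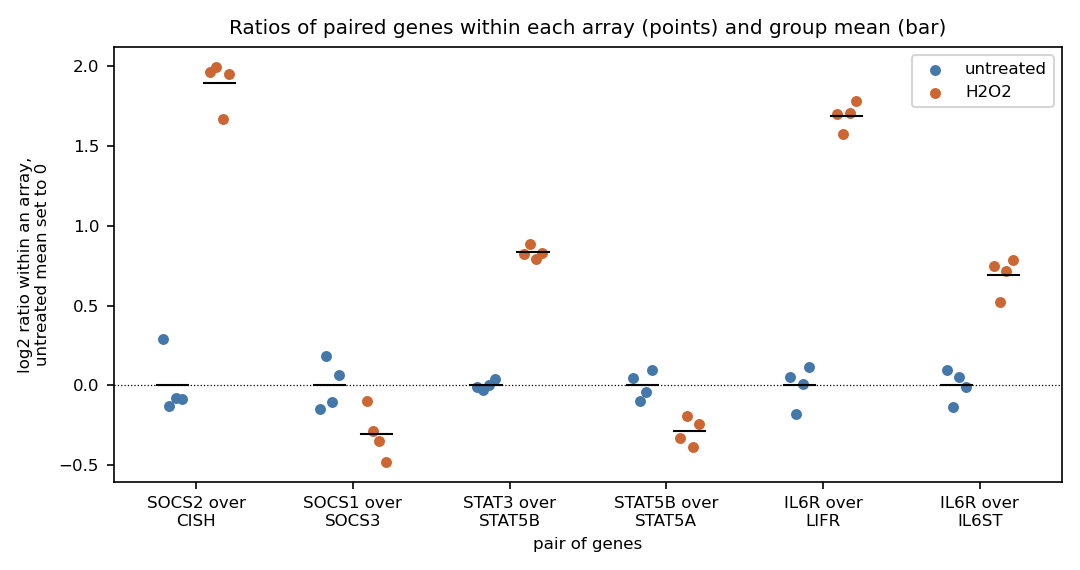
Log2 ratio of 2 genes within each array (vertical axis, the untreated mean of each pair set to 0) for 6 pairs, with 4 untreated (blue) and 4 H2O2 arrays (orange) and group means as bars. The groups are apart for every pair but SOCS1 over SOCS3.

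Untreated replicate 3 was the highest of its group for 7 of the 10 genes, namely IL6R, LIFR, IL6ST, STAT3, STAT5A, STAT5B and SOCS3. H2O2 replicate 3 was the highest of its group for 5 genes and the lowest for 4. How often these arrays were extreme over all genes was not counted, so the counts do not mark out the 10 genes. The rises of SOCS2, IL6R and STAT3 and the falls of LIFR, SOCS1 and STAT5B were called without either array, as in all 15 other settings.

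By similarity of profile over the 8 arrays, each centred on its own mean, the 4 genes nearest to SOCS2 were CD9, a tetraspanin, TFPI2, a protease inhibitor, CLDN6, a claudin, and SLFN5, a Schlafen family gene. Their Euclidean distances were 0.28 to 0.33, and TFPI2, CD9 and SLFN5 rose by 1.79 ± 0.088 to 1.83 ± 0.091, CLDN6 slightly more, by 2.0 ± 0.085. TFPI2 and SLFN5 lay low in untreated cells, at 4.56 ± 0.015 and 5.73 ± 0.11. These levels are not shown to exceed background, which limits the differences of both genes. Nearest to LIFR, at 0.12 to 0.15, were PDK3, a pyruvate dehydrogenase kinase, AASS, of lysine breakdown, SMC3, a cohesin subunit, and GPSM2, a spindle orientation protein. They differed by -0.81 ± 0.081 (AASS) to -0.90 ± 0.082 (GPSM2). Nearness was judged on the same 8 arrays, so differences close to those of SOCS2 and LIFR follow from the choice of these genes.

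The counts of each list below stand beside 19.2% of all genes called higher and 14.8% lower, and no list was tested as a set. The ligands of the family were measured for 8 of 11 listed genes, of which 3 rose and 0 fell (median 0.025). LIF, a ligand of LIFR, read 6.20, 6.36, 6.59 and 6.55 in untreated and 7.90, 7.70, 7.80 and 7.80 in treated cells, a rise of 1.37 ± 0.089 (limma adjusted p = 6.36e-08). LIF and its receptor chain thus moved in opposite directions. IL11 rose by 0.97 ± 0.078 and EBI3, a subunit of interleukin-27, by 0.90 ± 0.090. IL6 itself, named after its value was seen, lay low at 5.15 ± 0.12 and 5.12 ± 0.18 and differed by -0.023 ± 0.093 (limma adjusted p = 0.886), a sign that turned after quantile normalization (0.018).

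Of the 5 other receptors of the family 3 rose and 0 fell (median 0.36). IL31RA rose by 1.08 ± 0.072, from a low level of 4.98 ± 0.081, and IL27RA by 0.41 ± 0.071. OSMR, which pairs with IL6ST or IL31RA, gave 0.36 ± 0.11 (limma adjusted p = 0.0195). That call was lost without untreated replicate 1, untreated replicate 2 or H2O2 replicate 4 (adjusted p = 0.0516 to 0.0665). Without H2O2 replicate 3, CNTFR, the chain that binds ciliary neurotrophic factor, was called lower.

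In the list of other receptors that signal through STAT5 or STAT3, 18 of 20 were measured, and 13 of these were not called. CSF3R, the receptor of granulocyte colony-stimulating factor, fell by 0.80 ± 0.081, PRLR, the prolactin receptor, by 0.64 ± 0.099 and IL22RA1, of the interleukin-22 receptor, by 0.59 ± 0.071. The 2 that rose were IL2RG, the common gamma chain (0.53 ± 0.081), and IL10RB (0.24 ± 0.083). The IL10RB call was lost, leaving 1 rise, when all probe sets were fitted and without untreated replicate 3 or 4 or H2O2 replicate 1, 2 or 4. GHR, the growth hormone receptor, named after its value was seen, lay low at 4.86 ± 0.12 and 4.82 ± 0.24 and differed by -0.039 ± 0.11 (limma adjusted p = 0.830), above 0 after quantile normalization (0.0059).

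Among the JAK kinases, 2 of 4 were called higher and 0 lower. JAK2, the kinase of growth hormone and prolactin receptors, read 6.50, 6.55, 6.49 and 6.50 in untreated and 7.64, 7.72, 7.38 and 7.73 in treated cells. Its groups were far apart, at 1.11 ± 0.081 (limma adjusted p = 2.00e-07). JAK1, the main kinase of IL6ST, gave 0.30 ± 0.096 (limma adjusted p = 0.0248) with overlapping groups. Its call was lost, leaving 1 rise, when all probe sets were fitted and without untreated replicate 1, 2 or 4 or H2O2 replicate 4 (adjusted p = 0.0531 to 0.0817). TYK2 (0.072 ± 0.066) and JAK3 (-0.24 ± 0.093, limma adjusted p = 0.0614) did not pass, though JAK3 was called lower without untreated replicate 1 or 2 and when dim genes were left out (adjusted p = 0.0340 to 0.0496).

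Of the other STATs, STAT6, which interleukin-4 activates, rose by 0.70 ± 0.065 and STAT4 gave 0.089 ± 0.10. The other SOCS genes also went both ways. SOCS4 rose by 0.89 ± 0.079, from 7.42 ± 0.058 to 8.31 ± 0.15, SOCS7 fell by 0.28 ± 0.062, and SOCS5 (-0.16 ± 0.075) and SOCS6 (-0.049 ± 0.074) did not pass. Of 6 partners with which SOCS proteins form a ubiquitin ligase, RNF7 (0.44 ± 0.079) and ELOC, elongin C (0.35 ± 0.079), rose and 0 fell.

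Other negative regulators rose in 6 of 10 measured cases and fell in 1 (median 0.22), beside 19.2% and 14.8% of all genes. PIAS3, which keeps STAT3 from DNA, rose by 0.87 ± 0.073, and the phosphatases PTPN1 and PTPN6 rose by 0.48 ± 0.062 and 0.41 ± 0.066. PIAS2, of the same family as PIAS3, fell by 0.87 ± 0.071. The count of rises was 3 when all probe sets were fitted and without untreated replicate 1, 2 or 4 or H2O2 replicate 4. That of falls was 2, with PTPN2 added, when dim genes were left out and without untreated replicate 4.

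**Figure D4:**
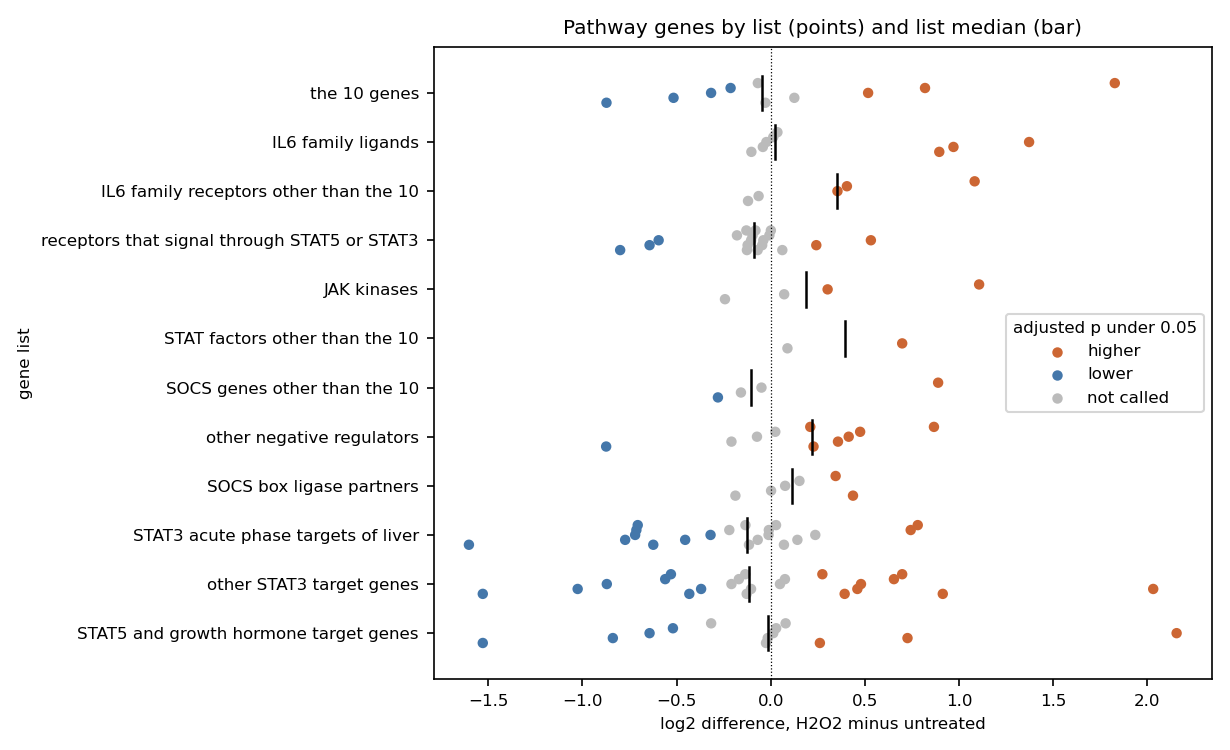
Log2 difference between H2O2 and untreated cells (horizontal axis) for the 10 genes and for each list of pathway genes (rows), 1 point per gene, with the list median as a bar. Genes called higher are orange, genes called lower blue and the rest grey, and every list of target genes holds rises and falls.

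Known targets of STAT3 included both rises and falls, and a common shift of them was not tested. Of 20 measured acute phase genes of liver 8 fell (40%, beside 14.8% of all genes), 2 rose (10%, beside 19.2%) and 10 were not called (median -0.12). CP, the ferroxidase ceruloplasmin, fell by 1.60 ± 0.14, ITIH3, an inhibitor heavy chain, by 0.77 ± 0.11 and ORM2, an orosomucoid with the near-identical copy ORM1, by 0.72 ± 0.092. LBP, which binds lipopolysaccharide, rose by 0.78 ± 0.077 and HPX, the heme carrier, by 0.74 ± 0.13. CRP, C-reactive protein, named after its value was seen, gave -0.13 ± 0.087 at a low level of 4.95 ± 0.097 (limma adjusted p = 0.274). It passed without H2O2 replicate 3, at -0.21 (adjusted p = 0.0450). Hepatocyte markers, of which FGB is also in this list, fell in 6 of 9 cases and rose in 1 on the same arrays, and their part in these falls was not tested.

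Other STAT3 targets rose in 8 and fell in 7 of 22 cases (median -0.12). TIMP1, a protease inhibitor, rose by 2.03 ± 0.080, CCND1, cyclin D1, by 0.91 ± 0.082 and BCL2L1, which encodes the survival protein BCL-xL, by 0.70 ± 0.069. PIM1, a survival kinase, fell by 1.53 ± 0.093, VEGFA, an angiogenic factor, by 1.03 ± 0.067 and BIRC5, survivin, by 0.87 ± 0.098. Survival genes were thus among both the rises and the falls, and a cyclin was among the rises.

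Targets of STAT5 and growth hormone rose in 3 and fell in 4 of 13 measured cases (median -0.015). CCND2, cyclin D2, rose by 2.16 ± 0.085, the drug-metabolising CYP3A4 by 0.73 ± 0.12 and TTR, the thyroid hormone carrier transthyretin, by 0.26 ± 0.084, with overlapping groups. The TTR call was lost without untreated replicate 3 or 4 or H2O2 replicate 1 or 2. PIM1, listed for both factors, PRLR and BCL6, a repressor that fell by 0.84 ± 0.074, were the largest falls. Over all lists, each gene counted once, 33 of 109 measured genes rose (30.3%) and 22 fell (20.2%), beside 19.2% and 14.8% of all genes. With dim genes left out, 3144 of 11256 genes were called higher and 2577 lower, a larger share, and the count over all lists was not repeated there. The lists were chosen with earlier results of these data known, so these shares are descriptions. Of the 37 called genes named from the lists, 7 lay below the median of all values in untreated cells, namely LIF, IL31RA, IL2RG, JAK2, LBP, CCND2 and CYP3A4. Their levels there are not shown to exceed background, which limits their differences as it does that of SOCS2.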

How the data were processed

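The values analysed are log2 expression values per probe set, as deposited by the authors. Summarization and normalization are not given in the sources used here. Per the submitters' processing notes limma was used, for a step not stated. The platform annotation pairs 19158 of 32321 probe sets with 1 symbol, 1388 with several and 11775 with none. Where a gene had several probe sets (637 genes), that with the highest mean log2 was taken, giving 18404 genes. The values come with no genome build.

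Groups follow the sample titles. limma 3.58.1 in R 4.3.3 fitted 1 mean per group with empirical Bayes moderation, tested on simulated data, and gave every gene's adjusted p. The cultures are biological replicates per the design text, and 4 per group limit the precision. Figures used Python 3.11.15 with matplotlib 3.10.9.

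The 10 genes, the lists and the pairs were chosen with earlier results of these data known. The text names all 10, the called genes of each list with the largest differences (at most 3 each way), and the other measured JAK, STAT and SOCS genes. Alternatives were the replicate number as a block, quantile normalization, median centring, averaged probe sets, a filter on dim genes, trended robust moderation, fitting all probe sets, and leaving out each array. The lists cover IL6 family ligands and receptors, other STAT5 or STAT3 receptors, JAK kinases, STAT factors, SOCS genes, negative regulators, SOCS box partners, and targets of STAT3 and STAT5.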

Additional observations from a re-analysis of the deposited data

Results flagged for a closer look

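A single culture stood apart from the other 3 of its group in 5 of 110 groups of values, those of 55 genes in 2 conditions. Chance gives such flags in about 1 in 20 groups, and 0 of the 5 concerned the 10 genes. IL11 read 8.33 in H2O2 replicate 3, above 8.06 to 8.07 in the others. OSMR read 10.81 in H2O2 replicate 4, above 10.75 to 10.76. IL22RA1 read 8.22 in untreated replicate 3, above 8.07 to 8.08, and BCL2L1 read 11.03 there, above 10.82 to 10.83. ELOC read 10.92 in H2O2 replicate 3, below 11.09 to 11.11.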

How the results depend on the processing

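Across 15 other settings, the calls and directions of SOCS1, SOCS2, STAT3, STAT5B, IL6R and LIFR held, and IL6ST and CISH kept their sign and stayed uncalled. SOCS3 kept its direction but lost its call when all probe sets were fitted (-0.21, adjusted p = 0.0732) and with the replicate number as a block (-0.21, adjusted p = 0.0646); leaving out arrays gave -0.26 to -0.16, and its adjusted p ranged from 0.0115 to 0.144 over all settings. STAT5A ranged from -0.082 to 0.040 when arrays were left out, with its sign turned without untreated replicate 3 (0.040) or H2O2 replicate 2 (0.017), and had no value when dim genes were left out. Same-numbered cultures were not shown to be paired (r of their deviations -0.21 to 0.14, and 1 of 4 untreated cultures closest to its own number), and the block gave 3288 rises and 2470 falls in place of 3527 and 2732. IL6 turned positive after quantile normalization (0.018) and in some leave-one-out values, which ran from -0.11 to 0.025, as did GHR (0.0059, and -0.13 to 0.043). Of 667 other values of 45 listed genes, 635 kept direction and call, and 33 of 37 called genes kept their call in every setting that gave them a value. Of these, IL31RA, IL2RG, LBP and CYP3A4 had none when dim genes were left out. OSMR, IL10RB, JAK1 and TTR also lost theirs when all probe sets were fitted. Background signal was not available, so low levels are not shown to be detected.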

Other observations

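Calls were counted by whether a promoter window holds the STAT motif TTCNNNGAA. Tested genes without a RefSeq window, SOCS2 among them, were left out. Each gene was placed by its window with the most motifs, so LIFR counts among those with 1. Among 12920 genes with no such motif in any RefSeq window 20.1% were called higher and 15.2% lower after H2O2. Among 1240 genes with a window holding 1 motif the shares were 21.4% and 14.9%. Among 70 genes with a window holding 2 or more, CISH included, they were 15.7% and 11.4%. These shares are descriptions and were not tested.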
